A study of Mus musculus with 12 samples.

Results

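The interferon regulatory factor (IRF) genes Irf1, Irf2, Irf3, Irf4, Irf5, Irf7, Irf8 and Irf9 were examined for accessible chromatin in brain macrophages of bone marrow (BM) chimeric mice. Members were all ATAC-seq peaks that the authors' merged tables assigned to 1 of these 8 genes as the nearest start site, 77 of the 60288 peaks of untreated mice and 63 of the 54953 peaks of mice challenged with lipopolysaccharide (LPS). ATAC-seq counts sequencing tags at sites where a transposase can reach the DNA, so a peak is a stretch of open chromatin. C57BL/6J wild-type mice had been irradiated with 950 cGy, had received donor BM, and were kept for 9 months by the published description, where the labels give 3.5 or 9 months without tying an interval to a mouse. From each brain, graft-derived macrophages (CD45.1) and host microglia (CD45.2) were sorted by flow cytometry. Mice 4, 5 and 6 were untreated, and mice 1, 2 and 3 had been given 2.5 mg/kg LPS 12 h earlier, so each population had 3 libraries per treatment, or 12 in 4 groups. Mouse numbers are the replicate numbers of the library titles, and equal numbers were taken as 1 animal. Host cells had been irradiated and graft cells had not, and this applied to both treatments.

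IRFs are transcription factors that share a DNA-binding domain reading GAAA repeats. IRF3 and IRF7 lie downstream of nucleic acid sensors and of the LPS receptor TLR4 and drive type I interferon genes, IRF9 is part of a complex that responds to interferon, IRF1 is an interferon-induced activator, and IRF2 is known as its antagonist. IRF5 acts below the adaptor MyD88 on inflammatory cytokine genes, whereas IRF4 and IRF8 are restricted largely to immune cells and bind composite sites with the ETS factor PU.1. IRF8 is needed for normal microglia.

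Peaks were spread unevenly over the genes. In the untreated table Irf8 held 21, Irf2 19, Irf1 10, Irf4 10, Irf5 7, Irf7 5, Irf9 3 and Irf3 2 peaks, and in the LPS table Irf8 held 17, Irf2 16, Irf4 10, Irf1 9, Irf5 5, Irf7 4 and Irf9 2, with none assigned to Irf3. The start site peak of Irf3 in the untreated table did overlap a peak of the LPS table, which was assigned to another gene. Irf3 therefore has no start site values after LPS and no pair below. The filter on low counts (a count over 10 in at least 1 library) was passed by 76 of 77 and by 53 of 63 peaks, so a peak could pass through its higher population alone. A value below is the deposited tag count of a peak divided by the size factor of the library (normalized tags), which within a treatment is comparable between libraries. Tag counts are averages over sorted cells, so more cells with an open site and more opening per cell cannot be told apart.

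Total tags ranged from 8392878 to 9107770 in untreated and from 2966364 to 6556595 in LPS libraries, and the median count per peak from 16 to 35 and from 8 to 23.5 tags. All 9 microglia markers and all 6 general macrophage markers had tested peaks in both treatments. Of the 9 microglia genes, 3 were higher in CD45.2 at rest and 2 after LPS (adjusted p under 0.05, DESeq2), beside 7.46% and 2.98% of all genes. None was higher in CD45.1. By peak, 33 of 81 and 14 of 57 were higher in CD45.2, and 1 in CD45.1 in each treatment. None of the 6 macrophage genes was called. Over the peaks of the 9 microglia markers the summed level was 1825 to 2551 normalized tags in untreated CD45.1 and 3620 to 3985 in CD45.2 libraries. Among the genes lower in CD45.1 were Sall1 and Sall3, with log2 differences of -3.22 and -1.88. Neuronal markers (Rbfox3, Snap25 and Syt1) were higher in CD45.2 at 3 of 3 genes in untreated and at 2 of 3 in LPS libraries (adjusted p under 0.05, DESeq2), with sums of 171 to 202 against 27.5 to 39.4 in untreated and of 53.7 to 93.4 against 15.6 to 16.8 normalized tags in LPS libraries. Markers of other cells moved in either direction at single genes. In untreated mice the B cell gene Ms4a1 (log2 difference 1.73), the T cell gene Cd3d (0.70), the dendritic cell gene Flt3 (0.54) and the neutrophil gene Retnlg (4.34) were higher in CD45.1. Ebf1 of B cells (-1.001), Cd209a of dendritic cells (-2.60), S100a9 of neutrophils (-1.16), Slc1a2 of astrocytes (-0.68) and Mog of oligodendrocytes (-0.85) were higher in CD45.2. After LPS, Ms4a1 (1.22), Cd209a (-2.22) and Mog (-1.04) were called. None of the 5 monocyte markers was called in either table, and no peak was listed for Cd79a, Pax5, Cd3e, Cd3g, Cd8a or Xcr1. The part of these markers in the results below was not tested.

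Sequences of selected peaks are given as read from the genome build mm9, on the plus strand, with matches to a motif in capitals. The peak 71.8 kb into Irf2, in intron 5 (chr8:47896746-47896972, 227 bp in the LPS table), showed the largest change after LPS, and the peak 20.2 kb upstream of Irf8 (chr8:123239997-123240196) also rose. The peak 21.4 kb downstream of the Irf8 start (chr8:123283847-123284085) was present in the LPS table alone, so no change can be given for it. Capitals mark the AP-1 motif (TGANTCA), which was in 12.7% of Irf and 12.6% of all peaks of the LPS table. The Irf8 peaks 10.9 kb upstream and 2.57 kb downstream of the start, also of the LPS table alone, hold no AP-1 match and are not printed.
Irf2 +71.8 kb: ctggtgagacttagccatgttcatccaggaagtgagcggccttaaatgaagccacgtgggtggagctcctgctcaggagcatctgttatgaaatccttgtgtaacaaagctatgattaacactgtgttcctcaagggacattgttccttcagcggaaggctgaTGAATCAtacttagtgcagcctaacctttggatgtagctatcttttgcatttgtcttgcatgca
Irf8 20.2 kb upstream: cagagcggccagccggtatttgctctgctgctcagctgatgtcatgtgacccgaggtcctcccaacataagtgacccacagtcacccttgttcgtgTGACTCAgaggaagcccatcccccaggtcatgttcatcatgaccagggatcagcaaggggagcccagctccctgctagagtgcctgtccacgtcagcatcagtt
Irf8 +21.4 kb: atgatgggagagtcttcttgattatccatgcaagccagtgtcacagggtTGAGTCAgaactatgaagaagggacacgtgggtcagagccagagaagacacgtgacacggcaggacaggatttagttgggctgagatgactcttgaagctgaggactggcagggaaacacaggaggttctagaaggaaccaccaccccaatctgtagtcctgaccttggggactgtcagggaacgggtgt
In the promoter peaks of Irf1 (chr11:53583352-53583501) and Irf8 (chr8:123260055-123260257) capitals mark the gamma-interferon activated site (GAS, TTCNNNGAA), which was present once in Irf1 and in 2 copies in Irf8.
Irf1 promoter: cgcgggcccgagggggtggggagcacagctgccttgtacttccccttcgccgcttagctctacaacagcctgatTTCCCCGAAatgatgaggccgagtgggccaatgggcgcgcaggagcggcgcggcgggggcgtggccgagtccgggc
Irf8 promoter: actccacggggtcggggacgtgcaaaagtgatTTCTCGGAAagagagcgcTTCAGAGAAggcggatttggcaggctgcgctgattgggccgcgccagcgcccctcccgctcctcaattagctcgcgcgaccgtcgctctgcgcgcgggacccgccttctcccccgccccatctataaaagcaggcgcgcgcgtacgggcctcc
The peak 13 kb downstream of the Irf1 start (chr11:53596903-53597028) had the lowest adjusted p between the populations and matched none of the 6 motifs searched.
Irf1 +13 kb: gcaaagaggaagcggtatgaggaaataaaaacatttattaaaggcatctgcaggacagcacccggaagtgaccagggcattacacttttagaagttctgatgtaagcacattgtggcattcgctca

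At the start sites of untreated mice, no difference between the populations passed the test. The study compared graft-derived cells with host microglia at rest, and 12 tested peaks of 7 of the 8 genes lay within 1 kb of a start site. Their log2 differences of CD45.1 over CD45.2 ran from -0.12 to 0.72, and the lowest adjusted p was 0.200 (DESeq2 Wald test, Benjamini-Hochberg over all 59170 peaks tested). Promoter peaks were seldom called over all genes as well. Summed per gene, they were higher in CD45.1 at 218 and in CD45.2 at 266 of 10861 genes (adjusted p under 0.05, DESeq2). The promoter peak of Irf1, the interferon-induced activator (gene at chromosome 11, 53583516 to 53591876), held 149, 138 and 150 normalized tags in the CD45.1 libraries of mice 4, 5 and 6 and 143, 127 and 124 in their CD45.2 libraries. These ranges overlapped. At the promoter of Irf8 (chromosome 8, 123260258 to 123280594), the macrophage lineage factor, the same libraries held 111, 93.6 and 109 against 144, 111 and 91.7 normalized tags. Irf4 (chromosome 13, 30841095 to 30858796), which is best known from lymphocytes and dendritic cells, had an open promoter in both populations, with 108, 97.7 and 93.1 against 104, 98.3 and 90.9. The promoter of Irf7 (chromosome 7, 148448605 to 148452380), the amplifier of the type I interferon response, held 64.4, 54.3 and 87.1 against 45.9, 52.6 and 47.9 normalized tags. Here each CD45.1 library lay above each CD45.2 library, but the difference of 0.48 on the log2 scale (SE 0.261) had an adjusted p of 0.259 by DESeq2. The intronic start site peak of Irf5 (chromosome 6, 29476625 to 29491869), 62 bp before an internal start, held 119, 98.1 and 144 against 75.4, 103 and 90.1. Irf3 (chromosome 7, 52253018 to 52258218) shared its start site peak, which overlapped untranslated exons of Irf3 and of the divergent gene Bcl2l12, at 71.4, 57.5 and 69.2 against 68.0, 65.0 and 77.9 normalized tags. Irf9 (chromosome 14, 56222408 to 56228867) held 98.4, 107 and 95.8 against 92.6, 96.8 and 87.6. For Irf2 (chromosome 8, 47825099 to 47932812) no peak lay within 1 kb of the start, and the nearest, 1.46 kb into intron 1, held 95.1, 116 and 101 against 116, 117 and 105.

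The strongest Irf2 peak lay 112 kb from the start, behind the gene, at 113, 131 and 108 against 111, 115 and 121, and for the other genes the start site peak given above was the strongest. A weaker peak at an internal start of Irf1 held 31.2, 31.9 and 58.8 against 31.95, 23.2 and 34.9, and 1 at the outer start of Irf5 68.1, 45.18 and 66.4 against 64.7, 47.6 and 38.5.

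The order of the genes per 100 bp rested on which start site peak was taken. By the peak nearest to the start, Irf4 stood highest and Irf1 lowest in both populations of untreated mice. In CD45.1 the level fell from 78.5 ± 6.10 normalized tags per 100 bp (SD, n = 3) at Irf4 over 64.0 ± 3.81 at Irf9 to 32.5 ± 12.6 at Irf1, and in CD45.2 from 77.0 ± 5.20 at Irf4 over 61.2 ± 3.38 at Irf2 to 24.02 ± 4.86 at Irf1. Irf4 did not overlap the gene after it in either population. The others formed a continuum in which neighbours overlapped, except Irf7 (35.9 ± 2.55) and Irf1 in CD45.2. The nearest peaks of Irf1 and Irf5 were weaker than another of their start site peaks. By the strongest peak within 1 kb, Irf5 (103 ± 19.5) and Irf1 (97.1 ± 4.24) stood above Irf4 in CD45.1, and Irf1 (87.6 ± 6.98) stood first and Irf5 (76.4 ± 11.6) just below Irf4 in CD45.2. Irf1 did not overlap Irf4 in either population, and Irf5 overlapped it in both. After LPS, Irf5 and Irf4 were the top pair in both populations (43.1 ± 6.67 and 35.3 ± 4.73 in CD45.1, 35.9 ± 2.09 and 40.7 ± 13.2 in CD45.2), and they overlapped each other. Irf1 came next, below both in CD45.1 without overlap, whereas in CD45.2 its libraries (17.2 to 30.6) overlapped those of Irf4 (27.1 to 53.5) and not those of Irf5. The nearest peaks of Irf1, Irf5 and Irf9 were other ones than in the untreated table. These levels cannot be set against those of untreated mice, since each table was scaled alone.

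**Figure D1:**
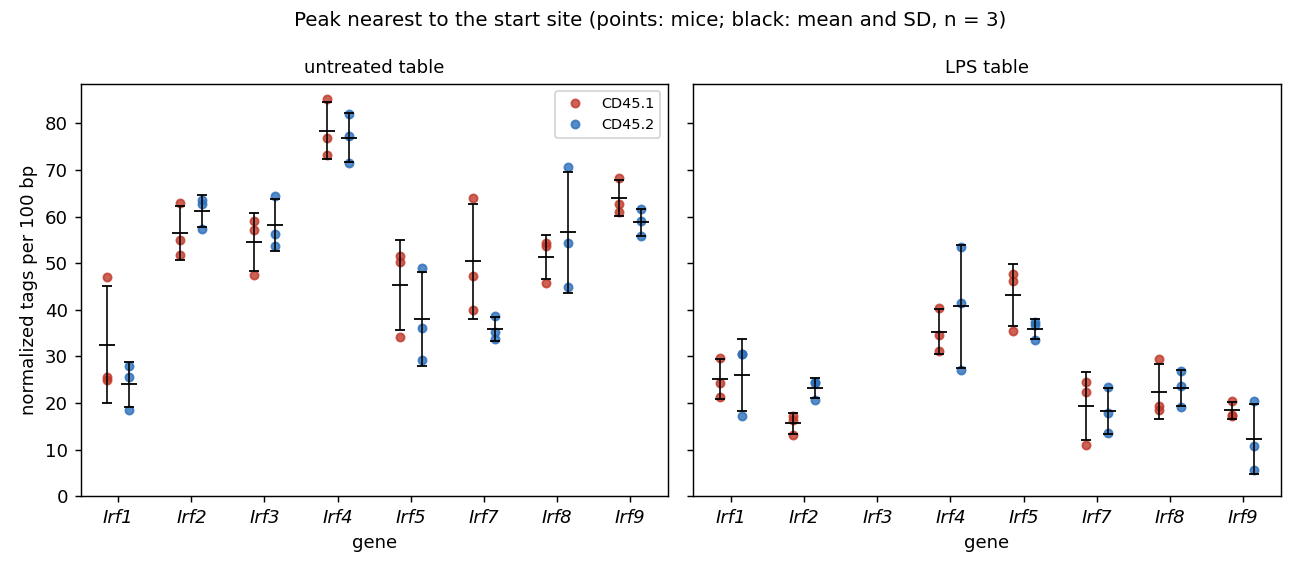
Normalized tags per 100 bp (y axis) at the peak nearest to the start site of each Irf gene (x axis), untreated table on the left and LPS table on the right. Points are mice and black bars the mean and SD of 3. The CD45.1 and CD45.2 points of a gene overlap except at Irf7 in the untreated and Irf2 in the LPS table. Irf3 is absent on the right because no peak of the LPS table was assigned to it by name.

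Of the 76 Irf peaks tested in untreated mice, start site peaks included, 9 were more accessible in CD45.1 and 1 in CD45.2 (adjusted p under 0.05, DESeq2). These are 11.8% and 1.32%, and over all peaks the shares were 8.54% and 6.32%. Under a stricter limit (adjusted p under 0.01 and more than 4-fold) 7 Irf peaks were called in either direction, or 9.21% against 6.43% of all peaks. Each of these 7 passed the count filter through its higher population alone. No library of the lower population held more than 6.5 tags there, so their size and lack of overlap are no separate support. Of the 10 called peaks, 0 lay within 1 kb and 9 lay beyond 10 kb of their start site, where 41 of the 66 peaks that were tested and not called also lay. At 24 of 76 Irf peaks (31.6%) all libraries of 1 population lay above those of the other, and over all peaks this share was 35.5%. The median log2 difference over the Irf peaks was 0.13, beside 0.00084 over all peaks.

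Irf1 had 3 of the 9. The peak 13 kb downstream of its start held 42.9, 41.5 and 52.3 normalized tags in CD45.1 and 8.19, 3.10 and 5.27 in CD45.2 libraries. Every CD45.1 library was far above every CD45.2 library, and the log2 difference was 3.22 (SE 0.492, adjusted p = 7.11e-09, DESeq2). A list of peaks called in single libraries held it in 3 of 3 CD45.1 and 0 of 3 CD45.2 libraries. The peak lies beyond the end of Irf1, in an exon of the long non-coding RNA gene Gm12216 (GENCODE vM1), and its assignment to Irf1 rests on distance alone. A further peak in an intron of Gm12216, 24.5 kb from the Irf1 start (chr11:53608421-53608553), held 76.5, 62.5 and 93.7 against 27.0, 36.8 and 33.3 normalized tags. Its log2 difference was 1.23 (SE 0.277, adjusted p = 0.000196, DESeq2), and with libraries scaled to total tags the adjusted p was 0.0534. Another, 35.5 kb away in the same intron (chr11:53619417-53619563), held 9.79, 21.4 and 31.0 against 1.64, 0.774 and 4.87, again without overlap (log2 difference 3.02, SE 0.747, adjusted p = 0.000858, DESeq2). The peaks between them were not uniform, since the one at 23.7 kb held 28.5, 42.4 and 27.2 against 34.4, 44.9 and 31.6 and that at 24.9 kb 57.8, 56.6 and 44.1 against 50.8, 39.5 and 45.0.

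Irf4 had peaks called in either direction. In its last exon, within the 3' UTR and 15.3 kb from the start (chr13:30856329-30856467), the CD45.1 libraries held 20.5, 21.9 and 21.2 normalized tags and the CD45.2 libraries 2.46, 0.774 and 0. Replicates of CD45.1 were nearly identical there, and the summed counts differed 26.6-fold (95% counting interval 8.92 to 283) with 2.50 tags in all in CD45.2 (log2 difference 4.43, adjusted p = 7.81e-05, DESeq2). At 34.4 kb upstream (chr13:30806652-30806756) the values were 5.60, 6.85 and 24.5 against 1.64, 0 and 0.406. This site rested on mouse 6 for most of its tags, and the ratio of summed counts was 24.4 (95% counting interval 4.71 to 157). Its adjusted p was 0.00295 by DESeq2, and 0.0563 without the CD45.2 library of mouse 5. Without the CD45.1 library of mouse 6 the peak fell under the count filter and could not be tested. The single Irf peak higher in CD45.2 lay 45.5 kb downstream of the Irf4 start, between genes (chr13:30886615-30886703), with 2.80, 2.28 and 1.63 in CD45.1 and 9.01, 18.6 and 12.98 in CD45.2 libraries. Its log2 difference was -2.63 (SE 0.782, adjusted p = 0.00786, DESeq2). With the mouse as a block the adjusted p was 0.0505, and it was 0.0515 without the CD45.1 library of mouse 5, 0.153 without the CD45.2 library of mouse 5 and 0.0523 without that of mouse 6. The microglia and the neuronal marker sums given above were also higher in CD45.2, and a link of this peak to either was not tested. Near the gene, the peak 10.6 kb upstream held 56.0, 71.6 and 84.4 against 63.9, 63.5 and 80.3 normalized tags, an overlap like that of the promoter.

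Irf8 showed its differences in the upstream region. The peak 24.9 kb upstream (chr8:123235296-123235400) held 10.7, 9.13 and 18.5 normalized tags in CD45.1 and 0, 1.55 and 0.812 in CD45.2 libraries. Summed counts differed 13.04-fold (95% counting interval 4.08 to 65.2, 3.00 tags in CD45.2), with an adjusted p of 0.00373 by DESeq2. The peak 16.3 kb upstream (chr8:123243900-123244058) held 57.8, 47.5 and 70.8 against 22.1, 33.3 and 39.8, a log2 difference of 0.83 (SE 0.299, adjusted p = 0.0397, DESeq2) that had an adjusted p of 0.128 with the mouse as a block and 0.436 with libraries scaled to total tags. Without the CD45.1 library of mouse 4 or 6, or any 1 CD45.2 library, it lay between 0.0724 and 0.241. Both lie between genes by the authors' annotation and in an intron of the read-through model Gm20388 in GENCODE vM1. The other Irf8 peaks were not called. At 27.0 kb upstream the values were 27.5, 26.5 and 40.3 against 14.7, 17.8 and 13.4 without overlap, and the adjusted p was 0.0607.

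Irf2 and Irf7 had 1 peak each. The peak in intron 5 of Irf2, 71.7 kb from the start (chr8:47896757-47896875), held 17.7, 10.04 and 40.3 normalized tags in CD45.1 and 1.64, 1.55 and 2.03 in CD45.2 libraries. It was nearly closed in all 3 CD45.2 libraries, and the summed counts differed 12.4-fold (95% counting interval 4.95 to 32.0, log2 difference 3.82, adjusted p = 0.000128, DESeq2). The other 17 tested Irf2 peaks ran from -1.08 to 0.71 on the log2 scale, and none was called. Near Irf7 the peak 2.65 kb upstream (chr7:148454894-148455054), which lies at the 3' end of the neighbouring gene Cdhr5, held 37.3, 40.6 and 68.1 against 24.6, 27.1 and 21.9. Its log2 difference of 0.97 (SE 0.339) had an adjusted p of 0.0324 by DESeq2, of 0.151 with the mouse as a block and of 0.220 with libraries scaled to total tags. Without the CD45.1 or the CD45.2 library of mouse 5 or 6 it lay between 0.0539 and 0.349. Irf3, Irf5 and Irf9 had 0 called peaks among 2, 7 and 3, all under 2-fold. At an unadjusted p under 0.05 DESeq2 placed 0 of the Irf3, 1 of the Irf5 and 0 of the Irf9 peaks, beside 14014 of all 59170 peaks.

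The CD45.1 library of mouse 6 was the highest of the CD45.1 libraries at 8 of the 9 peaks called higher in CD45.1. Without it the count above 4-fold was 2 in place of 7, and it was 3 and 4 without the CD45.2 libraries of mice 5 and 6. With counts adjusted for GC content and the mouse as a block it was 4. Support by the lists of single libraries, counted where a list held an overlapping peak, varied. In CD45.1 and CD45.2, 3 and 0 lists held Irf1 at 13 kb, Irf2 at 71.7 kb and Irf4 at 15.3 kb and 34.4 kb upstream. For Irf1 at 35.5 kb they were 2 and 0, and for Irf8 24.9 kb upstream 1 and 0. Irf7 2.65 kb upstream had 3 and 1, Irf8 16.3 kb upstream 3 and 2, Irf1 at 24.5 kb 2 and 3, and Irf4 at 45.5 kb 0 and 2.

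**Figure D2:**
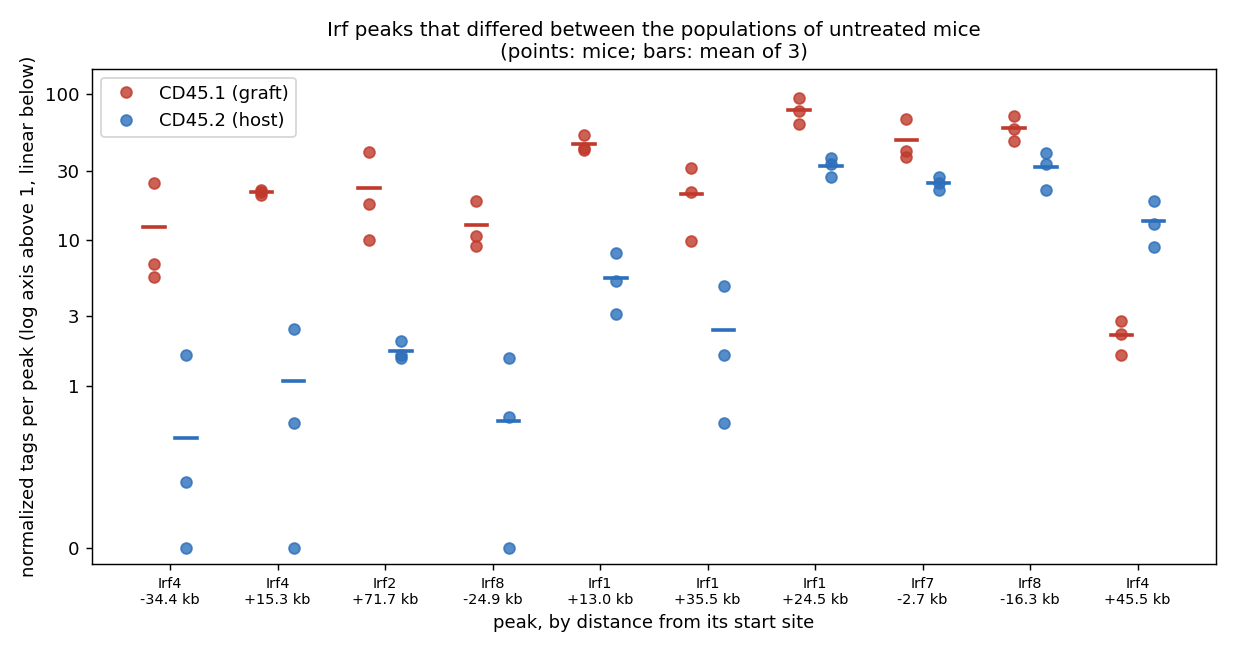
Normalized tags per peak (y axis, log above 1 and linear below) in each untreated mouse at the 10 Irf peaks that differed between CD45.1 (red) and CD45.2 (blue), ordered by log2 difference, with bars for the mean of 3. The populations do not overlap at any of the 10, which were picked for their difference. Only the Irf4 peak at the right is higher in CD45.2.

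Summed over all peaks of a gene, only Irf1 differed at rest. Its 10 peaks held 456, 458 and 503 normalized tags in CD45.1 and 335, 313 and 323 in CD45.2 libraries, a log2 difference of 0.55 (SE 0.113, adjusted p = 2.91e-05, DESeq2 over 16174 genes). Over all genes 14.8% were called in either direction. Summed over its promoter peaks alone, Irf1 had a log2 difference of 0.16 and an adjusted p of 0.931, and with libraries scaled to their total tags the difference was 0.58 with an adjusted p of 0.754. The next largest was Irf7 at 0.36 (SE 0.175, adjusted p = 0.178, DESeq2), and Irf3 (-0.013) and Irf4 (-0.034) were the lowest. The genes with a summed level most like that of Irf1 over the 12 libraries were Gm11747 (Pearson r = 0.965) and 1700017B05Rik (0.961) among 9619 genes compared, and the points share depth and treatment, since LPS libraries were shallower.

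Genes that act with the IRFs were read from 3 lists. Of 28 tested interferons and interferon-stimulated target genes, 8 were higher and 0 lower in untreated CD45.1 cells (adjusted p under 0.05 on summed peaks, DESeq2), with a median log2 difference of 0.16 beside -0.00096 over all genes. Over all genes 7.35% were higher in CD45.1 and 7.46% lower. These were the antiviral genes Oas2 (1.32), Oas3 (1.87), Mx1 (0.57), Rsad2 (0.55) and Xaf1 (0.83), the MHC class II activator Ciita (1.29) and the cytokine genes Il12b (0.52) and Il15 (0.48). Of 25 upstream receptors, kinases and adaptors, 1 was called in each direction, a smaller share than over all genes. The kinase gene Irak4 was higher (1.03, adjusted p = 5.18e-06, DESeq2) and the RNA sensor gene Tlr3 lower (-0.66, adjusted p = 0.000436, DESeq2). Of 10 tested partners, Batf2 (1.15) and Irf2bp2, which encodes an IRF2 corepressor (0.26), were higher. After LPS 4.08% of all genes were higher in CD45.1 and 2.98% lower. Of 29 targets 2 were higher (Mx2, 0.62, and Rsad2, 0.71) and 0 lower, 0 of 10 partners differed by DESeq2, and among the upstream genes Tlr4 was higher (0.66) and the interferon gamma receptor gene Ifngr2 lower (-0.70).

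After LPS, the populations differed at 0 of the 53 Irf peaks tested (adjusted p under 0.05, DESeq2). Over all 49180 peaks 4.08% were higher in CD45.1 and 2.38% in CD45.2, and 2.97% passed the stricter limit, which 0 Irf peaks passed. At an unadjusted p under 0.05 (DESeq2) there were 5 of the 53 Irf peaks and 7622 of all 49180. The edgeR quasi-likelihood test called 3, of which 2 were higher in CD45.1 (Irf1 at 13 and 24.5 kb) and 1 in CD45.2 (Irf4 at 70.9 kb). Over all 49180 peaks edgeR called 3617 higher in CD45.1 and 2297 in CD45.2. The libraries did not overlap at 11 of 53 (20.8%), beside 27.1% of all peaks. Of the 53, 49 differed by less than 2-fold. At the Irf1 peak 13 kb from the start the values were 16.2, 19.6 and 10.9 normalized tags in CD45.1 and 5.25, 4.36 and 4.16 in CD45.2, still without overlap (log2 difference 1.80, SE 0.626, adjusted p = 0.0588, DESeq2). At 70.9 kb from the Irf4 start, in an intron of Exoc2 (chr13:30911861-30912102), they were 13.3, 18.3 and 15.1 against 26.3, 30.1 and 42.5 (log2 difference -1.15, SE 0.405, adjusted p = 0.0648, DESeq2). The 3' UTR peak of Irf4, the Irf1 peak at 35.5 kb and both peaks inside Irf7 fell under the count filter in this table. At the start sites the ranges again overlapped. Irf1 held 60.6, 49.6 and 43.4 against 35.03, 62.4 and 62.05 normalized tags, Irf8 31.1, 46.97 and 29.7 against 30.7, 37.9 and 43.05, Irf4 60.2, 46.3 and 51.4 against 79.7, 61.9 and 40.4 and Irf5 68.7, 71.1 and 52.8 against 49.9, 55.8 and 54.6. Irf7 held 37.2, 18.3 and 41.04 against 22.8, 29.7 and 39.2, and the peaks of Irf9 50.9, 47.6 and 52.8 against 28.02, 48.4 and 62.3 and 19, 16.3 and 16.04 against 5.25, 10.03 and 19. The 7 log2 differences within 1 kb ran from -0.16 to 0.45 with a lowest adjusted p of 0.756 (DESeq2). Over all genes, promoter peaks summed per gene were called higher in CD45.1 at 105 and in CD45.2 at 105 of 10427. At Irf2 the peak in intron 1, the strongest of the gene after LPS, held 49.7, 39.8 and 52.4 against 73.6, 74.6 and 62.6, without overlap, and its log2 difference of -0.55 had an adjusted p of 0.267 (DESeq2). No Irf gene was called on summed peaks (7.07% of all genes were), and the largest of their differences was 0.31 at Irf1 (SE 0.236, adjusted p = 0.576, DESeq2). LPS libraries were shallower, and a difference of the size seen at rest need not be detectable in them.

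**Figure D3:**
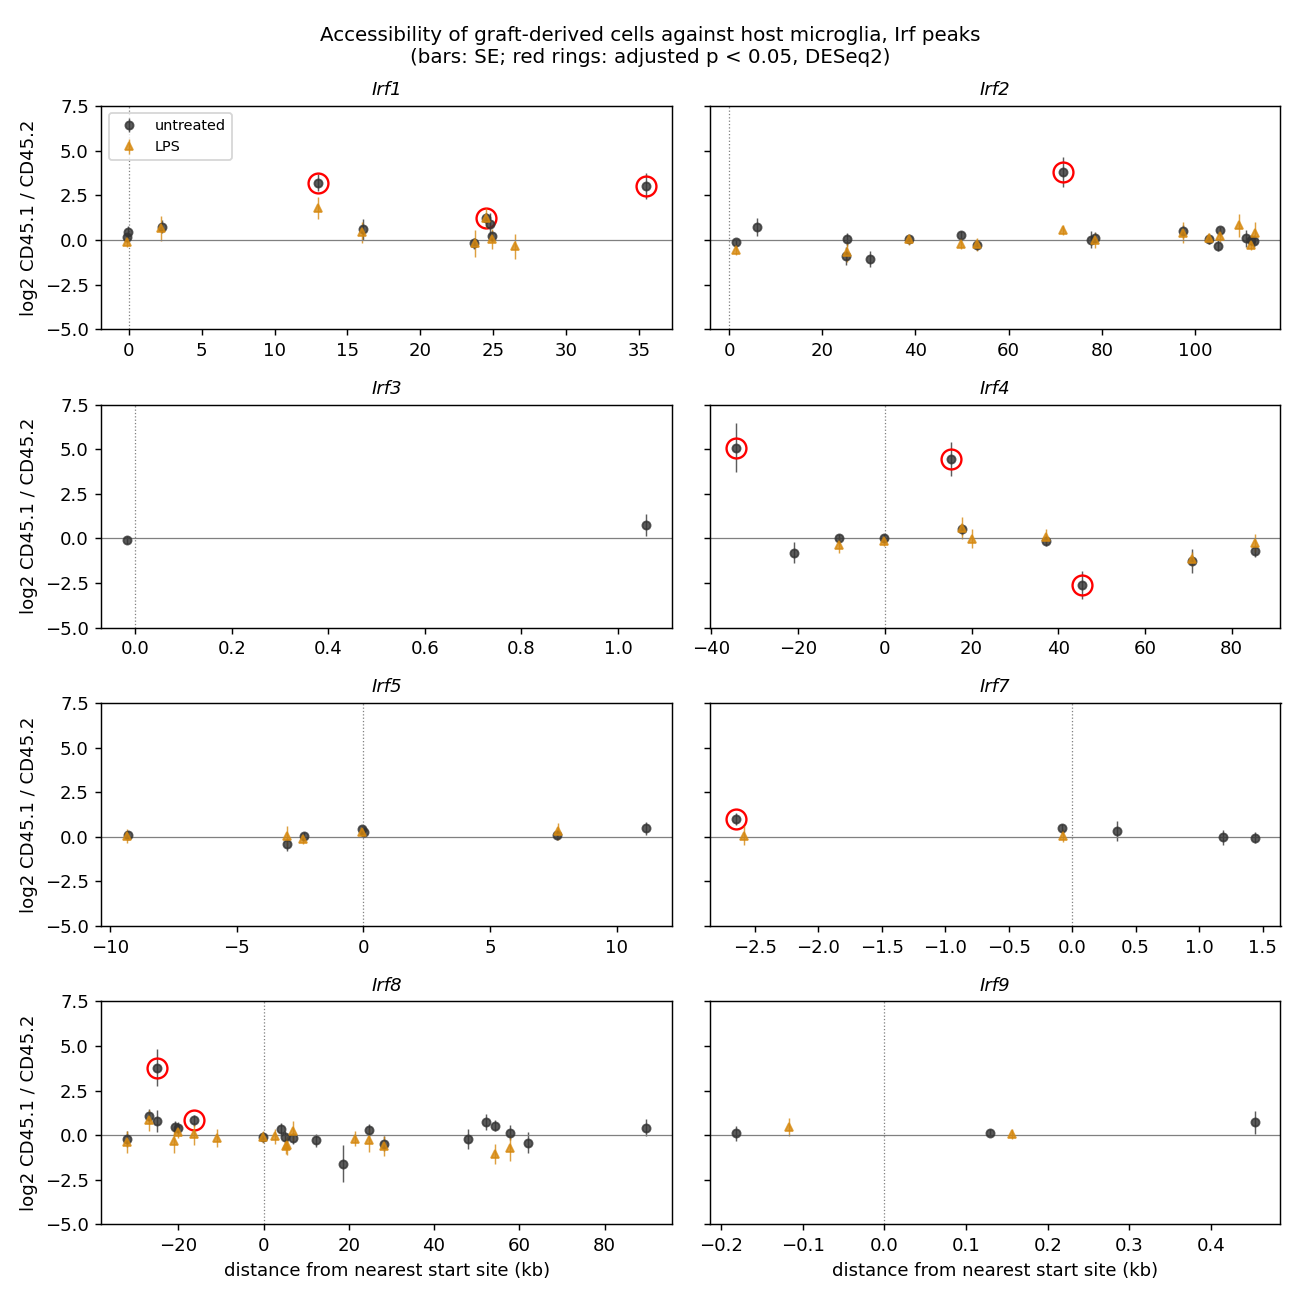
Log2 difference of CD45.1 over CD45.2 (y axis, bars SE) for every tested Irf peak against its distance from the nearest start site in kb (x axis, own scale for each gene), untreated as dark circles and LPS as orange triangles. The 10 ringed peaks passed an adjusted p of 0.05, all of them in untreated mice, and the peaks within 1 kb of a start site lie between -0.16 and 0.72.

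To compare treatments, peaks of the tables were paired where they overlapped reciprocally by at least 50%, and 50 Irf pairs were tested in 1 model over the 12 libraries. The 6 pairs within 1 kb of a start site had log2 changes of LPS over untreated from -0.42 to 0.23 in CD45.1 and from -0.44 to 0.49 in CD45.2, with a lowest adjusted p of 0.203 (DESeq2). The share called over all start site pairs was not computed. Among all 50 Irf pairs, 2 were higher and 7 lower after LPS in CD45.1 and 2 higher and 2 lower in CD45.2 (adjusted p under 0.05 and more than 2-fold, DESeq2). Over all 39235 pairs 6.78% were higher and 4.93% lower in CD45.1, and 7.69% and 3.69% in CD45.2. The median log2 change over the Irf pairs was -0.37 for graft-derived and -0.25 for host cells, beside -0.0045 and -0.0072 over all pairs, and 37 and 30 of the 50 pairs were below 0. Without the CD45.1 LPS library of mouse 3 the count in CD45.1 was 5 in place of 9, and in CD45.2 it was 2 in place of 4 without the LPS library of mouse 3 or the untreated library of mouse 5. Treatment and table go together, and peaks of the LPS table were wider in 39 of the 50 pairs.

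The largest change was at the intron 5 peak of Irf2. In the scale of the 12 libraries it held 11.8, 6.74 and 26.5 normalized tags in untreated CD45.1, 1.09, 1.05 and 1.37 in untreated CD45.2, 93.8, 107 and 86.7 in CD45.1 after LPS and 55.5, 67.0 and 66.1 in CD45.2 after LPS. No untreated library of either population overlapped an LPS library. CD45.1 rose by 2.70 on the log2 scale (SE 0.317, adjusted p = 8.84e-15, DESeq2) and CD45.2 by 5.89 (SE 0.703, adjusted p = 1.67e-14, DESeq2). Peaks were called there in 3 of 3 CD45.1 and 0 of 3 CD45.2 lists of untreated mice and in all 6 lists after LPS. The peak was 119 bp wide in the untreated and 227 bp in the LPS table, which is a log2 width ratio of 0.93. Untreated tags outside the narrower peak were not counted, and the ratio does not give them. The narrower peak spans bases 12 to 130 of the LPS sequence printed above, and the AP-1 motif at bases 164 to 170 lies outside it.

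This was also the only Irf pair at which the change after LPS differed between the populations. The interaction was -3.19 on the log2 scale (SE 0.771, adjusted p = 0.0144, DESeq2), so the rise was larger in CD45.2 as a ratio, from a nearly closed start. In normalized tags CD45.1 rose more, from a mean of 15.0 to 95.8, against 1.17 to 62.8 in CD45.2. Over all pairs 0.245% passed this test, 1 of 50 Irf pairs did, and 14 Irf pairs had no adjusted p. Of the 96 called over all pairs, 89 had a negative interaction, as here, and 7 a positive one. After LPS the levels were closer on the log2 scale, 65.0 ± 6.63 in CD45.1 and 43.2 ± 4.10 in CD45.2 (SD, n = 3, LPS table), and did not overlap (log2 difference 0.56, adjusted p = 0.267, DESeq2). Without the untreated CD45.1 library of mouse 6 the interaction was -2.52 with an adjusted p of 0.274, and without the untreated CD45.2 libraries of mice 5 and 6 the adjusted p was 0.256 and 0.152.

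The other rise was at Irf8, 20.1 kb upstream of its start (chr8:123240029-123240208 untreated). The values were 18.7, 14.4 and 30.5 in untreated CD45.1, 16.9, 16.9 and 15.1 in untreated CD45.2, 53.3, 57.3 and 39.9 in CD45.1 after LPS and 44.1, 43.0 and 44.6 in CD45.2 after LPS. Both populations rose without overlap, by 1.26 (SE 0.303, adjusted p = 0.000586, DESeq2) and 1.43 (SE 0.317, adjusted p = 0.000156, DESeq2), and the interaction of -0.17 had an SE of 0.438. The peak was 180 bp wide in the untreated and 200 bp in the LPS table. Each of the alternatives that could be run left both calls in place.

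Lower accessibility after LPS was seen in both populations at 2 pairs. In Irf7, 1.44 kb into the gene (chr7:148450782-148450991 untreated), where the authors' annotation gives intron 4 and GENCODE vM1 coding sequence, the values were 24.3, 18.1 and 18.6 in untreated CD45.1, 20.1, 22.4 and 22.3 in untreated CD45.2, 5.27, 0.972 and 1.40 in CD45.1 after LPS and 7.57, 8.84 and 5.25 in CD45.2 after LPS. No untreated and LPS library overlapped. The log2 changes were -3.11 and -1.62, but the peak narrowed from 210 to 131 bp, and with an offset for width the change in CD45.2 was -0.66 with an adjusted p of 0.435 (DESeq2). At 23.7 kb from the Irf1 start the values were 18.98, 28.5 and 17.9 in untreated CD45.1, 22.8, 30.6 and 21.4 in untreated CD45.2, 12.9, 7.77 and 4.20 in CD45.1 after LPS and 10.1, 9.48 and 8.31 in CD45.2 after LPS. The changes were -1.34 and -1.40, and with that offset they were -0.60 and -0.66 with adjusted p of 0.410 and 0.370. The calls at Irf1 were lost in either population without its LPS library of mouse 2 or 3 or its untreated library of mouse 5 (adjusted p 0.0635 to 0.207, DESeq2), and that at Irf7 in CD45.2 without the LPS library of mouse 3 or the untreated library of mouse 5 or 6 (0.0530 to 0.131).

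The other 5 pairs were called lower in CD45.1 only, and at none of them did the interaction pass its test, which gave no adjusted p at 57.8 kb from Irf8. They were Irf4 10.6 kb upstream (-1.05 in CD45.1, -0.69 in CD45.2) and Irf8 16.3 kb upstream (-1.30 and -0.52), 24.8 kb (-1.20 and -0.60), 54.2 kb (-1.30 and 0.18) and 57.8 kb downstream (-1.47 and -0.59). The Irf4 peak held 37.3, 48.1 and 55.5 in untreated CD45.1, 42.4, 43.2 and 54.4 in untreated CD45.2, 21.7, 25.3 and 21.7 in CD45.1 after LPS and 29.01, 27.8 and 30.2 in CD45.2 after LPS. Both populations were lower there in all 3 LPS libraries. At 24.8 kb from the Irf8 start the values were 20.2, 37.4 and 31.2 in untreated CD45.1, 19.04, 25.3 and 28.02 in untreated CD45.2, 13.5, 10.7 and 12.6 in CD45.1 after LPS and 2.52, 21.5 and 19.7 in CD45.2 after LPS, and at 57.8 kb 13.4, 14.7 and 29.4 in untreated CD45.1, 14.7, 25.03 and 12.1 in untreated CD45.2, 5.27, 12.6 and 5.60 in CD45.1 after LPS and 6.31, 11.4 and 15.8 in CD45.2 after LPS. At the 54.2 kb peak the values were 28.6, 35.5 and 34.8 in untreated CD45.1, 23.9, 23.2 and 22.3 in untreated CD45.2, 17.6, 12.6 and 9.79 in CD45.1 after LPS and 40.4, 29.7 and 13.6 in CD45.2 after LPS. CD45.1 fell without overlap and CD45.2 spread to either side of its untreated range, and the interaction was -1.48 (SE 0.535, adjusted p = 0.401, DESeq2). At the Irf8 peak 16.3 kb upstream, which differed at rest, the values were 38.6, 31.8 and 46.6 against 14.7, 22.7 and 26.9 before and 12.9, 11.7 and 22.4 against 7.57, 17.7 and 17.1 after LPS. Its populations overlapped after LPS and had not before.

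Each of these 5 calls was lost under at least 1 alternative. With libraries scaled to total tags none was called (adjusted p from 0.0530 to 0.148, DESeq2), and with an offset for width the changes at 57.8 kb and 16.3 kb upstream were -0.88 and -0.91 with adjusted p of 0.280 and 0.0744. The call at 57.8 kb was also lost without the CD45.1 LPS library of mouse 1 or 3, the CD45.1 untreated library of mouse 6, the CD45.2 LPS library of mouse 2 or any 1 CD45.2 untreated library (adjusted p 0.0507 to 0.221, DESeq2). That at 24.8 kb was lost without any 1 CD45.1 LPS library or the CD45.1 untreated library of mouse 5 or 6 (0.0667 to 0.144), that at 16.3 kb upstream without the CD45.1 LPS library of mouse 1 or 2 (0.0550 and 0.0501), and that at 54.2 kb without the CD45.1 LPS library of mouse 3 (0.0872).

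**Figure D4:**
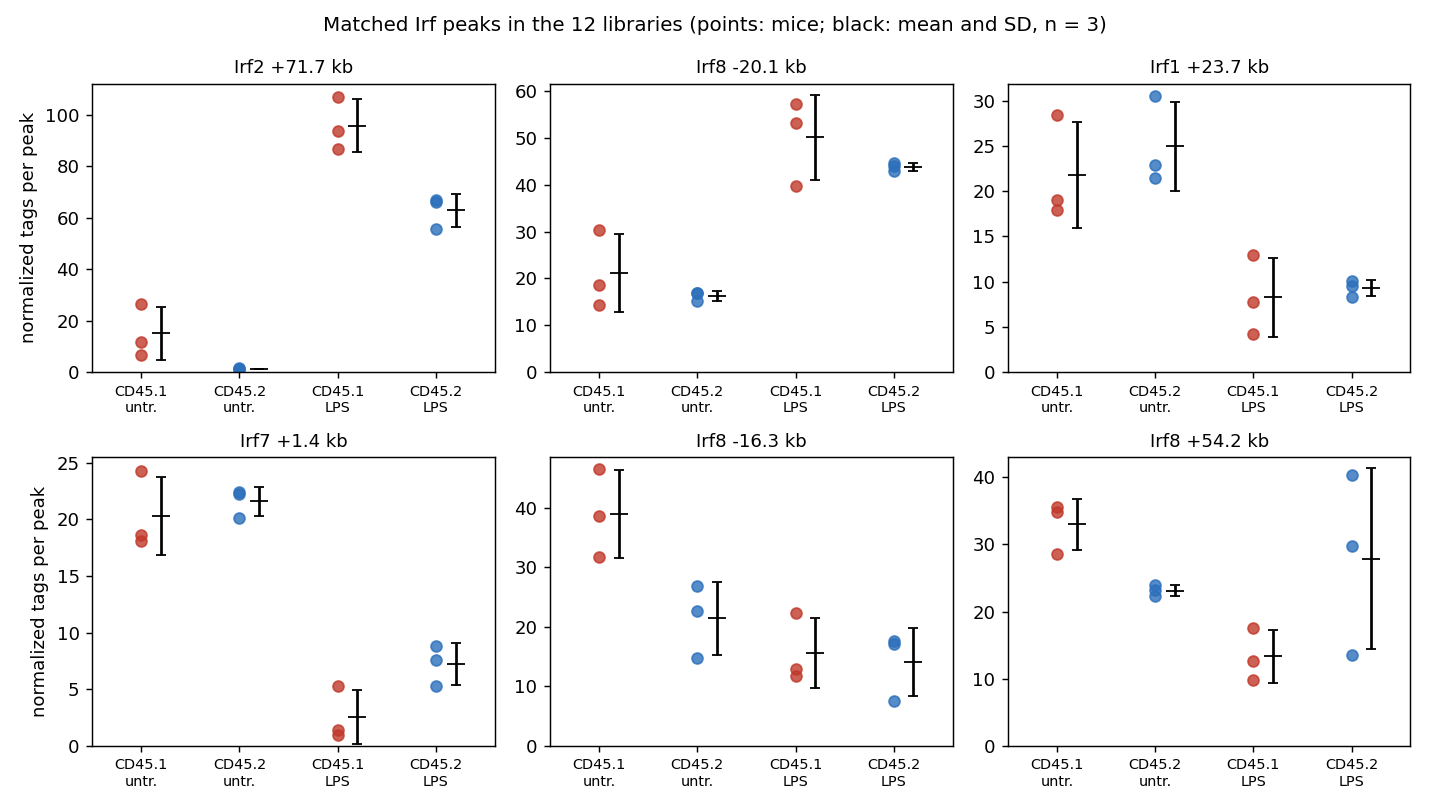
Normalized tags per peak (y axis, scaled over 12 libraries) at 6 matched Irf peaks, with CD45.1 in red and CD45.2 in blue, points for mice and black bars for the mean and SD of 3. Irf2 at 71.7 kb and Irf8 20.1 kb upstream are higher after LPS in both populations, and Irf7 at 1.44 kb and Irf1 at 23.7 kb are lower.

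**Figure D5:**
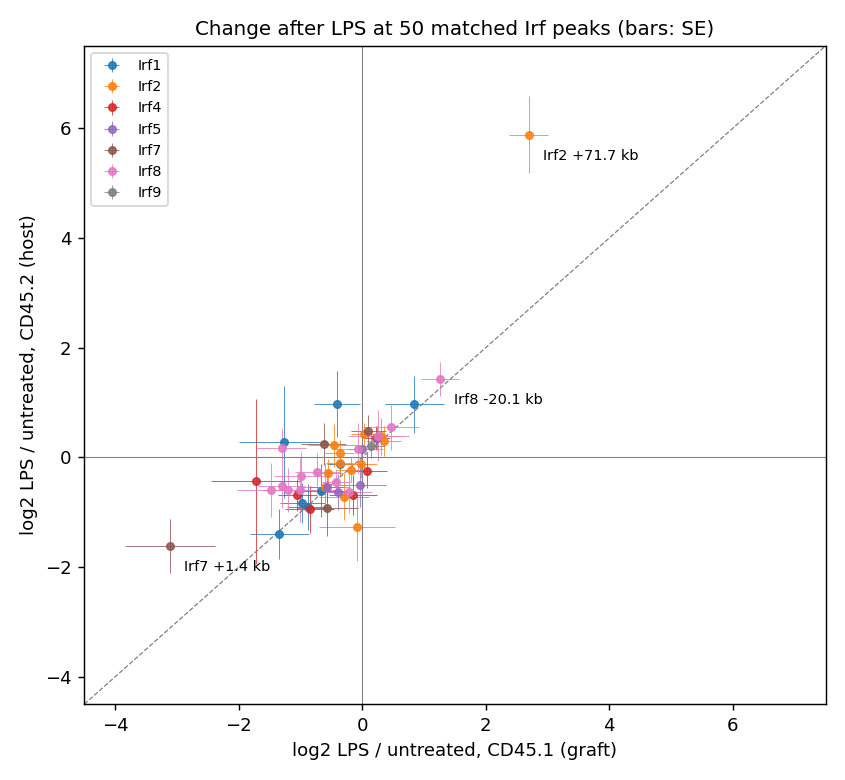
Log2 change of LPS over untreated in CD45.1 (x axis) and CD45.2 (y axis) at the 50 matched Irf peaks, coloured by gene, with SE as bars and the dashed line where both changes are equal. Of the 50 pairs, 37 lie below 0 in CD45.1 and 30 in CD45.2, and the Irf2 peak lies far above the line at 2.70 and 5.89.

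Some Irf peaks were present in 1 table alone. Of the 63 peaks after LPS, 11 had no overlapping peak in the untreated table, and 24 of 77 of the untreated table had none in the LPS table. These shares were not computed over all peaks, so they describe no trait of the Irf genes. By the pairing above, the 77 and 63 Irf peaks gave 50 pairs, and all 60288 and 54953 peaks gave 39390. Of the 11 peaks, 4 were merged from at least 4 of the 6 lists by the entry of the merged table. They were Irf8 at 10.9 kb upstream (11.7, 8.48 and 19.3 in CD45.1 and 10.51, 13.1 and 18.4 in CD45.2), at 2.57 kb in intron 2 (15.8, 19.6 and 22.2 against 16.6, 20.5 and 21.7) and at 21.4 kb (19, 22.8 and 16 against 22.8, 15.3 and 28.2), and Irf4 at 20.2 kb (12.1, 11.7 and 15.1 against 14.9, 10.03 and 14.8). At all 4 the populations overlapped, with log2 differences from -0.21 to -0.0084. Tags of untreated libraries at these sites were not counted in the untreated table, so no change after LPS can be given. Of the untreated peaks without a counterpart, the 3 called at Irf4 34.4 kb upstream, Irf4 45.5 kb downstream and Irf8 24.9 kb upstream were each merged from 1 list by that entry. Overlap with the lists of single libraries, given above, is another measure. In CD45.1 and CD45.2 it was 3 and 0, 0 and 2, and 1 and 0. The measures differ at both Irf4 peaks, and the reason was not tested.

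Motifs were searched in each peak on either strand. The IRF-ETS composite site (GGAANNGAAA), bound by PU.1 with IRF4 or IRF8, was found in 8 of 77 untreated Irf peaks (10.4%) and 4.83% of all, and in 5 of 63 LPS peaks (7.94%) and 4.12% of all, among them the start site peak of Irf5 and the peaks of Irf2 at 49.9 and 53.1 kb. The PU.1 core (GAGGAAGT) was in 11 (14.3%) and 10 (15.9%) Irf peaks and in 8.57% and 8.27% of all. The interferon-stimulated response element (ISRE, GAAANNGAAA) was in 2 untreated (2.60%) and 0 LPS Irf peaks, beside 2.85% and 3.00% of all. GAS was in 5 (6.49%) and 5 (7.94%), beside 3.52% and 4.83%. In each table these lay at the starts of Irf1, Irf8 and Irf9 and upstream of Irf5 (3.02 kb) and Irf8 (20.9 kb). NF-kappaB (GGGNNNNNCC) was in 24 (31.2%) and 23 (36.5%), beside 29.0% and 34.9%. AP-1 was in 5 (6.49%) and 8 (12.7%), beside 6.23% and 12.6%. Of these 8, 2 were the peaks that rose after LPS (Irf2 at 71.8 kb and Irf8 20.2 kb upstream) and 2 were peaks of the LPS table alone (Irf8 at 21.4 kb and Irf4 at 20.2 kb). The other 4, Irf2 at 103 kb, the start site peak of Irf5 and Irf8 27.0 and 20.9 kb upstream, were called in neither population, with log2 changes after LPS from -0.98 to 0.36. Of LPS peaks within 10% of the width of the Irf2 peak, 14.2% held the AP-1 letters. In the 300 bp promoters of RefSeq (GRCm38.p6) GAS was found in 3 of 11 Irf promoters, namely 1 of 2 of Irf1, 1 of 2 of Irf8 and that of Irf2, and in 8.29% of all 32817. ISRE was found in 1 of 11, that of Irf2, and in 3.43% of all. The composite and ISRE motifs can share letters, and a match describes the sequence and not a bound factor.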

How the data were processed

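ATAC-seq was performed on CD45.1 and CD45.2 cells sorted from the same brains, in 12 libraries of 4 groups (n = 3). Per the file headers, the authors counted tags in peaks merged over the 6 libraries of a treatment with HOMER, and the deposited values are estimated counts in steps of 0.5 tags, not normalized, on mm9. The deposited peak lists of single libraries give a score per peak, of which only positions were used here. The submitters' processing notes name bcl2fastq 2.17.1.14, Bowtie2, Picard 1.108 and HOMER, and a shift of tags for the transposase is not given in the sources used here. Counts were rounded to whole numbers, and a peak was tested where at least 1 library exceeded 10. The untreated and LPS tables were fitted separately with DESeq2 1.42.0 (R 4.3.3, median-of-ratios size factors, Wald test, Benjamini-Hochberg over all peaks), 3 libraries against 3. Peaks of the tables overlapping reciprocally by at least 50% were fitted together for the change after LPS and its interaction with population. Counts were also summed per gene. Alternatives were edgeR 4.0.16, TMM or total-tag scaling, other filters, the mouse as a block with and without a GC correction, an offset for peak width, other overlaps and leaving out each library.

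Total tags per library ranged from 2966364 to 9107770, and counting intervals cover counting error only. Members were given by gene name. The rule for values per library took every called peak and, per gene and table, the nearest start site peak within 1 kb and the strongest peak, with the 2 genes most like a called gene. Other peaks given were chosen after their values were seen. Members and lists were chosen with earlier results of these data known. Same-numbered libraries were paired on the assumption that both came from 1 animal, since the titles give only a replicate number. The deviations of a pair from the group means correlated at 0.0604 to 0.143 in untreated and at -0.202 to 0.0752 in LPS mice. Between differently numbered libraries of the populations they correlated at -0.129 to 0.0132 and at -0.235 to 0.191. The main peak fits of the 2 tables and the interaction fit were tested on simulated data. The sums per gene, the LPS contrasts within a population and the alternatives were not. Annotation was from GENCODE vM1, and promoters were from RefSeq (GRCm38.p6).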

Additional observations from a re-analysis of the deposited data

Results flagged for a closer look

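The change after LPS at the Irf2 peak 71.7 kb from the start differed between the populations by -3.19 on the log2 scale (CD45.1 minus CD45.2), and this difference was itself tested, as the interaction of population and treatment in DESeq2 (SE 0.771, adjusted p = 0.0144). All 3 libraries of each population were higher after LPS than all 3 before. The untreated CD45.2 libraries held 5.50 tags in all at this peak.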

How the results depend on the processing

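The 25 single-peak and single-gene results kept their direction under all 377 alternatives that could be run, and 312 of these also stayed on the same side of the threshold. No value was available for some low peaks under the stricter filter, for pairs that overlapped by less than 75%, or for Irf4 34.4 kb upstream without the CD45.1 library of mouse 6. Among untreated peaks, 3 were higher in CD45.1 in place of 9 at a mean count of at least 20 and 6 with total-tag scaling, which ended the calls of Irf1 at 24.5 kb, Irf7 at 2.65 kb and Irf8 at 16.3 kb upstream, and without single libraries the count ran from 6 to 8. For those higher in CD45.2 (1) edgeR gave 3, and a mean count of at least 20, the replicate block and the block with GC correction gave 0, with 0 to 1 without single libraries. Over all 59170 untreated peaks edgeR placed 6320 higher in CD45.2, and the main fit 3737. The block also ended the calls of Irf7 at 2.65 kb and Irf8 at 16.3 kb upstream, and changed no other call. Over 4-fold (7) there was 1 at a mean count of at least 20, 4 with the block and GC correction, and 2 to 6 without single libraries. After LPS (0 and 0) edgeR called 2 and 1, and scaling to total tags 1 and 0. Over all 49180 peaks edgeR called 3617 and 2297, and scaling to total tags 2423 and 915. The interaction (1) was 0 at an overlap of 75% and with total-tag scaling (-3.08, adjusted p = 0.133), and 0 to 1 without single libraries. With the block it was -3.18 (adjusted p = 0.0397). The change after LPS was called at 3 peaks in CD45.1 (9) at an overlap of 75% and at 3 with total-tag scaling, and at 5 to 9 without single libraries. In CD45.2 (4) it was called at 2 with an offset for width, at 1 at an overlap of 75%, and at 2 to 4 without single libraries. Summed Irf genes (1) were 0 with promoter peaks only and with total-tag scaling. The cause was not tested. Total-tag scaling moved the median of all LPS peaks to 0.14 on the log2 scale and the share of calls higher in CD45.1 from 63.2% to 72.6%, and the block with GC correction gave 53.4%. LPS libraries had a median of 8 to 23.5 tags per peak, which limits what differences could be detected there.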
